A study of Mus musculus with 4 samples.

Results

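The 31 genes described here encode enzymes and transporters of fatty acid beta-oxidation in mitochondria and peroxisomes. They were chosen by gene symbol from the 30439 genes or transcripts on the array, and all 31 were found, on 38 of the 39429 probes. By the location of their products, 17 are mitochondrial, 11 are peroxisomal, 2 (Eci2 and Ech1) have products in both organelles, and Acsl1 makes the acyl-CoA that both pathways use. The probe read for each gene was well above background on all 4 arrays.

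Liver RNA of male C57BL/6J mice on a high-fat diet was measured on 4 one-color arrays, with 1 liver of each genotype in each feeding state. The diet began at 4 weeks of age by the study's methods. The knockout mice (Drp1LiKO) carried floxed Drp1 alleles with Cre under the albumin promoter, which acts in hepatocytes, and the controls (Cont) were floxed littermates without Cre. Drp1, encoded by Dnm1l, is the GTPase that divides mitochondria and peroxisomes. The labels give 24 weeks of the diet for all 4 livers (the methods a range from 16 to 24), and the series description gives a fast of 17 h (the methods 16 h) and then 4 h of refeeding. A feeding state is named for the refed pair alone. The other pair, whose raw data the labels describe as shared with earlier submissions, is called fasted here because the study describes such a group. Each condition had 1 array, so no value below has a replicate, and a difference between 2 arrays may be a difference between 2 animals. The single Dnm1l probe read −0.21 (Drp1LiKO minus Cont, log2) after fasting and −0.12 after refeeding. Its place relative to the deleted exons is not known, so it does not check the labels.

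In mitochondria, long-chain acyl groups enter as carnitine esters through Slc25a20 and are returned to CoA by Cpt2. A cycle of dehydrogenation, hydration, a second dehydrogenation and thiolysis then shortens the chain, and the electrons of the first step pass through the flavoproteins Etfa and Etfb to Etfdh. Peroxisomes run a parallel cycle on very long-chain, branched and dicarboxylic acids, which enter through ABC transporters such as Abcd2 and Abcd3, and Crot makes carnitine esters of the shortened products. In liver, many of these genes are targets of the nuclear receptor PPARalpha, which is active in fasting, when fatty acids are the main fuel, and refeeding normally turns the tissue from oxidation toward synthesis.

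Each value is a log2 signal minus the log2 of the 75th percentile over its array, and a difference is taken between 2 such values. The measurement SE is computed from the scanner software's error estimate for each spot. For a difference between 2 arrays it was 0.20 for most members and up to 0.44 for Abcd2. As it was nearly the same for all bright members, 2 measurement SEs acted as a nearly fixed cut on a difference. It was not made smaller for the members with repeated spots, whose SD over spots was between 0.03 and 0.08. The measurement SE covers measurement error only, not the spread between animals. Probes differ in how they bind, so levels are compared between arrays for 1 gene and never between genes.

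In refed liver, all 31 members read lower in Drp1LiKO than in Cont, by between −0.07 and −1.85 on the log2 scale. The median difference was −0.63 over the members, against −0.04 over the 17446 genes detected above background on either of these arrays, of which 53.9% read below 0. By group the medians were −0.52 for the 17 mitochondrial and −0.70 for the 11 peroxisomal members. A total of 23 members were lower by more than 2 measurement SEs and none was higher, where 21.5% of all genes were lower by that much. Between fasted livers 25 members read lower in Drp1LiKO, where 56.3% of 18040 genes did, and the group medians were −0.23 and −0.38. These 25 members were below 0 in both feeding states, as 43.3% of genes were.

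**Figure D1:**
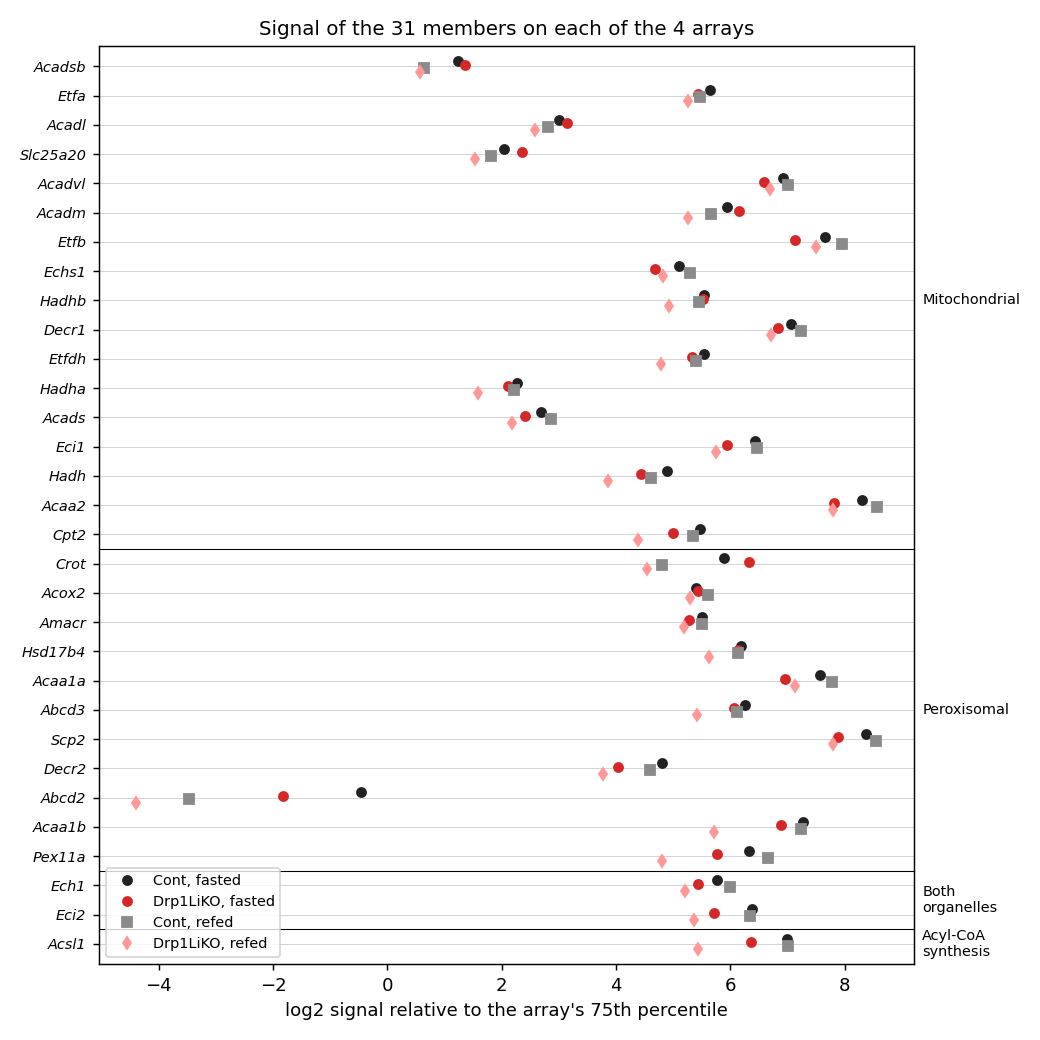
Log2 signal of each member minus that of the array's 75th percentile (x axis), 1 point per array, with members grouped by organelle and ordered by their refed genotype difference. The refed Drp1LiKO array (light diamonds) lies lowest for most members; horizontal distance between genes is not a comparison of their RNA.

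At least 2-fold lower in refed Drp1LiKO than in refed Cont liver were 3 members, Pex11a, Acaa1b and Acsl1, and none was 2-fold higher; of all genes, 6.33% were 2-fold lower and 8.05% 2-fold higher. Pex11a, a peroxisomal membrane protein that promotes the elongation and division of peroxisomes, read 6.32 in Cont and 5.76 in Drp1LiKO after fasting, and 6.65 and 4.80 after refeeding. The refed Drp1LiKO liver was thus the lowest of the 4 and the refed Cont liver the highest. The genotype difference was −0.56 ± 0.20 (measurement SE) after fasting and −1.85 ± 0.20 after refeeding, the latter 3.60-fold. The Pex11a probe (mm9 chr7:86882223-86882282, minus strand) is printed 10 times, and the SD over its spots lay between 0.04 and 0.06 on each array.

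Acaa1b, one of a pair of peroxisomal 3-ketoacyl-CoA thiolases, which carry out the last step of the cycle, read 7.26 in Cont and 6.89 in Drp1LiKO after fasting, and 7.24 and 5.72 after refeeding. Both Cont livers and the fasted Drp1LiKO liver were within 0.38 of each other, and the refed Drp1LiKO liver stood apart, at −1.53 ± 0.20 from refed Cont. Its paralog Acaa1a read 7.57 and 6.95 after fasting and 7.78 and 7.14 after refeeding, so under this scaling its genotype difference was nearly the same in both states, −0.61 and −0.64. Under quantile normalization, which gives all arrays the same distribution, it was −0.23 and −0.50 for Acaa1a and −0.08 and −1.35 for Acaa1b. The 60-base probes of the pair (mm9 chr9:119057326-119057385, minus strand, for Acaa1b and chr9:119259353-119259412, plus strand, for Acaa1a) share no identical run longer than 6 bases. The first 30 bases of each are shown because the 2 genes gave different values and the probes tell them apart:
Acaa1a: ccctggttgcaaagccatttgtacctttga
Acaa1b: tctgcgtgggacactcagcagtggaggagt

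Acsl1, the main long-chain acyl-CoA synthetase of liver, read 6.98 in Cont and 6.36 in Drp1LiKO after fasting, and 7.02 and 5.43 after refeeding. The 2 Cont livers were 0.03 apart, and the refed Drp1LiKO liver was again the lowest. The genotype difference was −0.62 ± 0.20 after fasting and −1.59 ± 0.20 after refeeding. A second Acsl1 probe, also well above background on all 4 arrays, gave −0.56 and −1.79. By real-time PCR, with more mice, the study reported no change of Acsl1 mRNA in Drp1LiKO mice on the high-fat diet. It also reported unchanged ACSL1 protein, while its supplement lists Acsl1 expression as decreased. The probe read here lies at mm9 chr8:47621232-47621291 on the plus strand.

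The 250 bases before the annotated start of these genes and of Acaa1a are shown because 3 of the 4 genes had the largest refed differences between genotypes and the Acaa1a paralog did not (RefSeq, build GRCm38.p6, in the direction of transcription). Capitals mark CCAAT on either strand, a short element of many promoters that was chosen for display after the letters were seen. Acsl1 has 2 annotated starts.
Pex11a, chr7:79743132-79743381, minus strand: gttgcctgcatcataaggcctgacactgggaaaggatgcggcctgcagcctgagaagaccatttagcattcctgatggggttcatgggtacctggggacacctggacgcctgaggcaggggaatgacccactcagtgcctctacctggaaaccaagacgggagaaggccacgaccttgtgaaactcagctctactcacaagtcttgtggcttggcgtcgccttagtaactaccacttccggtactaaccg
Acaa1b, chr9:119157094-119157343, minus strand: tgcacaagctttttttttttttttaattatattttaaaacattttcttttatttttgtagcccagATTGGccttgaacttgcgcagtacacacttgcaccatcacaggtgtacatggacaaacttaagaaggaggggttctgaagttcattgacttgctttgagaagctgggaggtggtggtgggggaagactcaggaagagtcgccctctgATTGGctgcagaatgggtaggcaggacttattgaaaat
Acaa1a, chr9:119341044-119341293, plus strand: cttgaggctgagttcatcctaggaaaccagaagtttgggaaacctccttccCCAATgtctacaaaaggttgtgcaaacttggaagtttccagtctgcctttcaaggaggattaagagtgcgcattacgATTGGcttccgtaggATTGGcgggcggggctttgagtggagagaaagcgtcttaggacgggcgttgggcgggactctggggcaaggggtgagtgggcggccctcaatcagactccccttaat
Acsl1, upstream start, chr8:46470787-46471036, plus strand: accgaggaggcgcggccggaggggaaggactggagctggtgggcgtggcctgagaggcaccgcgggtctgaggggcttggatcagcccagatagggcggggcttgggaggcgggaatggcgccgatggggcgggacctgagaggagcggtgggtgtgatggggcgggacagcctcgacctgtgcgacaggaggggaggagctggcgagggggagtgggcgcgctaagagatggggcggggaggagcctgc
Acsl1, downstream start, chr8:46490716-46490965, plus strand: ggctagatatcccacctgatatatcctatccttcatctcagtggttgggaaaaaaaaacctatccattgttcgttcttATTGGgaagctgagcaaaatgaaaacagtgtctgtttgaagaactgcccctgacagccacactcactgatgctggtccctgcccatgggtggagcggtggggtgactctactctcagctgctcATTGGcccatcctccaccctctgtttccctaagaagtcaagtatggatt
The Acaa1a and Acaa1b windows were 51.4% identical when aligned end to end. The Acaa1b window held 2 CpG dinucleotides and the Acaa1a window 10. CCAAT occurred in 34.5% of the 29 windows of members and in 37.4% of all 32851 windows, each from 250 bases before to 50 after a start.

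These windows were also searched on both strands for the repeat bound by PPARalpha with RXR, which is 2 copies of AGGTCA in the same direction with 1 base of any kind between them, as many of the members are known targets of that receptor. Windows were found for 26 of the 31 members (29 windows), and none held the repeat with 1 mismatch or fewer, against 0.554% of all windows. With 2 mismatches allowed, 4 member windows matched (13.8%), against 3.86% of all. None of the windows of Pex11a, Acaa1b, Acsl1 and Crot was among them. The matches are given in the direction of the repeat, from sites on GRCm38.p6:
Acox2, chr14:8258818-8258830: AGGACAGAGGTGA
Echs1, chr7:140116492-140116504: AGGTCACGGGTCC
Etfa, chr9:55512308-55512320: AGGGCAAAGGTAA
Slc25a20, chr9:108662142-108662154: AGGTGAAAGGTCG
The Echs1 and Etfa matches began at −83 and −77 from the start, and those of Acox2 and Slc25a20 at 10 and 7 after it. A single AGGTCA, which the full repeat contains, was found without mismatch in 4 member windows (13.8%) and in 16.3% of all. A match of letters in a window of this length is a description and not a binding site.

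**Figure D2:**
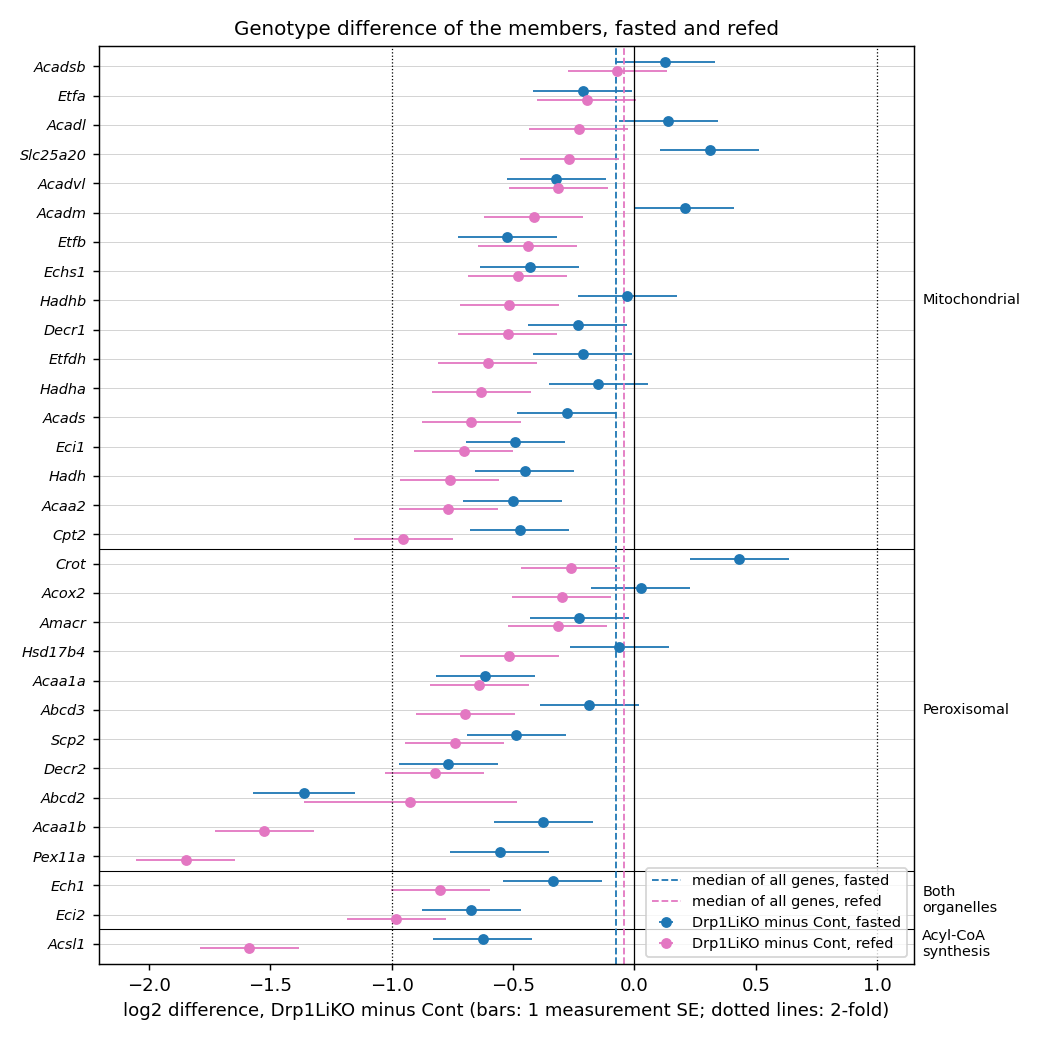
Log2 difference, Drp1LiKO minus Cont (x axis), of each member in fasted (blue) and refed (pink) liver, with bars of 1 measurement SE and dashed lines at the median of all genes (−0.08 and −0.04). All 31 refed values lie left of the refed median line, and Pex11a, Acsl1 and Acaa1b lie beyond the 2-fold line at −1.

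Among the mitochondrial members, none was 2-fold different in any of the 4 comparisons. Of all genes, 13.2% and 14.4% were between genotypes (fasted, refed), and 10.3% and 12.8% with refeeding (Cont, Drp1LiKO). The result depends on processing. With the median over probes, Acadsb differed by −1.27 and −1.39 with refeeding (Cont, Drp1LiKO). Under quantile normalization, Acadm differed by −1.35 with refeeding in Drp1LiKO. The largest refed difference was that of Cpt2, the inner-membrane carnitine palmitoyltransferase, which read 5.46 in Cont and 4.99 in Drp1LiKO after fasting and 5.34 and 4.39 after refeeding, for −0.47 and −0.95. A second Cpt2 probe gave 0.26 and −0.38, so the 2 probes disagree in sign after fasting. The smallest refed difference was that of Acadsb, a dehydrogenase of short branched chains, which read 1.24 and 1.37 after fasting and 0.64 and 0.57 after refeeding. A second Acadsb probe, well above background on 1 array, gave −0.90 and −0.96, and the median over both probes put the refed difference at −0.52, so its place as the smallest rests on the probe chosen.

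The subunits of the trifunctional protein, which carries out the last 3 steps on long chains, had like values. Hadha, the alpha subunit, differed between genotypes by −0.15 after fasting and −0.63 after refeeding. Hadhb, the beta subunit, read 5.54 and 5.51 after fasting and 5.45 and 4.93 after refeeding, a difference of −0.03 and then −0.52. For both subunits the fasted difference was within 1 measurement SE of 0 and the refed one was beyond 2.

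The acyl-CoA dehydrogenases, which take the first step at different chain lengths, were not uniform. Acadm, the medium-chain enzyme, read 5.94 in Cont and 6.15 in Drp1LiKO after fasting, and 5.66 and 5.25 after refeeding, so the order of the genotypes turned over. Acadl, for long chains, turned in the same way (0.14 and −0.23), as did the carrier Slc25a20 (0.31 and −0.27). For Acadl and Slc25a20, each value was within 2 measurement SEs of 0 under the main scaling. Acadvl, for very long chains, kept nearly the same difference (−0.32 and −0.31), though it was 0.01 and −0.16 under quantile normalization. Acads, for short chains, went from −0.28 to −0.67.

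Of the electron-transfer proteins, Etfb read 7.65 in Cont and 7.13 in Drp1LiKO after fasting and 7.94 and 7.50 after refeeding, which made its fasted difference of −0.52 the largest of the mitochondrial members. Etfa, its partner subunit, read 5.65, 5.44, 5.46 and 5.26 in the same order, for −0.21 and −0.20. A second Etfa probe gave 0.55 and 0.18 and so went against the first in both states. Etfdh, the membrane acceptor of these electrons, differed by −0.21 and −0.61.

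The later steps of the mitochondrial cycle read lower in Drp1LiKO in both states. Acaa2, the mitochondrial 3-ketoacyl-CoA thiolase, read 8.31 and 7.81 after fasting and 8.57 and 7.80 after refeeding, for −0.50 and −0.77, and its 10 repeated spots had an SD of 0.07 to 0.08 on each array. Hadh, the short-chain 3-hydroxyacyl-CoA dehydrogenase, differed by −0.45 and −0.76, and Echs1, the short-chain enoyl-CoA hydratase, by −0.43 and −0.48. Eci1, an isomerase for unsaturated chains, read 6.43 and 5.94 after fasting and 6.46 and 5.75 after refeeding. Decr1, the mitochondrial dienoyl-CoA reductase, read 7.06 and 6.83, then 7.24 and 6.72, for −0.23 and −0.52, and a second probe gave −0.03 and −0.91. Under quantile normalization the fasted differences were −0.01 for Acaa2, 0.02 for Decr1, −0.16 for Echs1, −0.17 for Eci1 and −0.21 for Hadh.

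Among peroxisomal members the spread was wider. Abcd2, a transporter of very long-chain acyl-CoA, had the largest fasted difference: it read −0.46 in Cont and −1.82 in Drp1LiKO after fasting, and −3.47 and −4.39 after refeeding. It was the only member 2-fold lower between fasted livers, at −1.36 ± 0.21, where 5.19% of all genes were 2-fold lower and 8.06% 2-fold higher, the latter with no member among them. Its signals were low after refeeding, with intensities of 335 and 204 in the fasted and 32.2 and 25.0 in the refed livers, and its refed genotype difference was −0.92 ± 0.44. Abcd3, the more general transporter, differed by −0.19 after fasting and −0.70 after refeeding.

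Decr2, the peroxisomal dienoyl-CoA reductase, was lower by about the same amount in both states (−0.77 and −0.82). Scp2, whose gene encodes the thiolase for branched chains together with a sterol carrier, read 8.38 and 7.89 after fasting and 8.54 and 7.80 after refeeding, and a second Scp2 probe gave −0.21 and −0.49 where the first gave −0.49 and −0.74. Hsd17b4, the multifunctional protein of the peroxisomal cycle, went from −0.06 to −0.52.

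Acox2 and Amacr differed less. Acox2, the branched-chain acyl-CoA oxidase, read 5.41 and 5.43 after fasting and 5.60 and 5.30 after refeeding. Amacr, a racemase of branched acyl-CoA, read 5.50 and 5.28 after fasting and 5.50 and 5.19 after refeeding. The fasted difference of Acox2, 0.03, was the smallest of the peroxisomal members.

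Crot, the peroxisomal carnitine octanoyltransferase, was higher in Drp1LiKO than in Cont after fasting and lower after refeeding. It read 5.89 and 6.32 in the fasted and 4.81 and 4.55 in the refed livers, for 0.43 ± 0.20 and −0.26 ± 0.20. Under the main scaling it was the only member higher by more than 2 measurement SEs in the fasted comparison, where 12.7% of all genes were. Lower by that much were 13 members, where 20.9% of genes were. These counts rested on the scaling. Under quantile normalization Crot (0.78), Acadm (0.53) and Slc25a20 (0.46) were higher by more than 2 measurement SEs after fasting. Only Abcd2 (−1.39) and Decr2 (−0.56) were lower by that much. Of the members with products in both organelles, Eci2 differed by −0.67 and −0.98 and Ech1, a dienoyl-CoA isomerase, by −0.34 and −0.80.

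Refeeding gave a second view of the same arrays. The genotype comparisons and these comparisons share all 4 arrays, so they are not separate evidence. In Cont liver the refed minus fasted median was −0.09 for mitochondrial and −0.02 for peroxisomal members, against 0.09 over 16437 genes, and 18 of 31 members read below 0, as 41.4% of genes did. In Drp1LiKO liver the medians were −0.53 and −0.51, against 0.08 over 18329 genes, and 27 of 31 read below 0, as 44.7% of genes did.

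Crot and Abcd2 were at least 2-fold lower after refeeding in both genotypes, and Acaa1b passed that size in Drp1LiKO. Abcd2 differed by −3.01 ± 0.35 in Cont and −2.57 ± 0.34 in Drp1LiKO, and Crot by −1.08 and −1.78. With normexp background correction, the Abcd2 differences were −1.57 and −1.13. Acaa1b differed by −0.02 in Cont and −1.17 in Drp1LiKO. Of all genes, 5.83% were 2-fold lower in Cont and 7.15% in Drp1LiKO. No member was 2-fold higher in either, where 4.47% and 5.61% of genes were.

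Most other members were within 2 measurement SEs of 0 in Cont. Under quantile normalization the Cont medians were −0.29 for mitochondrial and −0.35 for peroxisomal members. Acadsb differed by −0.60 in Cont and −0.80 in Drp1LiKO, the only other member beyond 2 measurement SEs in Cont. Acadm had the largest mitochondrial difference in Drp1LiKO, −0.90, beside −0.28 in Cont. Acsl1 gave 0.03 and −0.93 and Pex11a 0.33 and −0.96, and the second Acsl1 probe gave −0.19 and −1.42. The smallest differences were 0.03 for Eci1 and 0.00 for Amacr in Cont, and −0.01 for Acaa2 and −0.09 for Scp2 in Drp1LiKO.

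**Figure D3:**
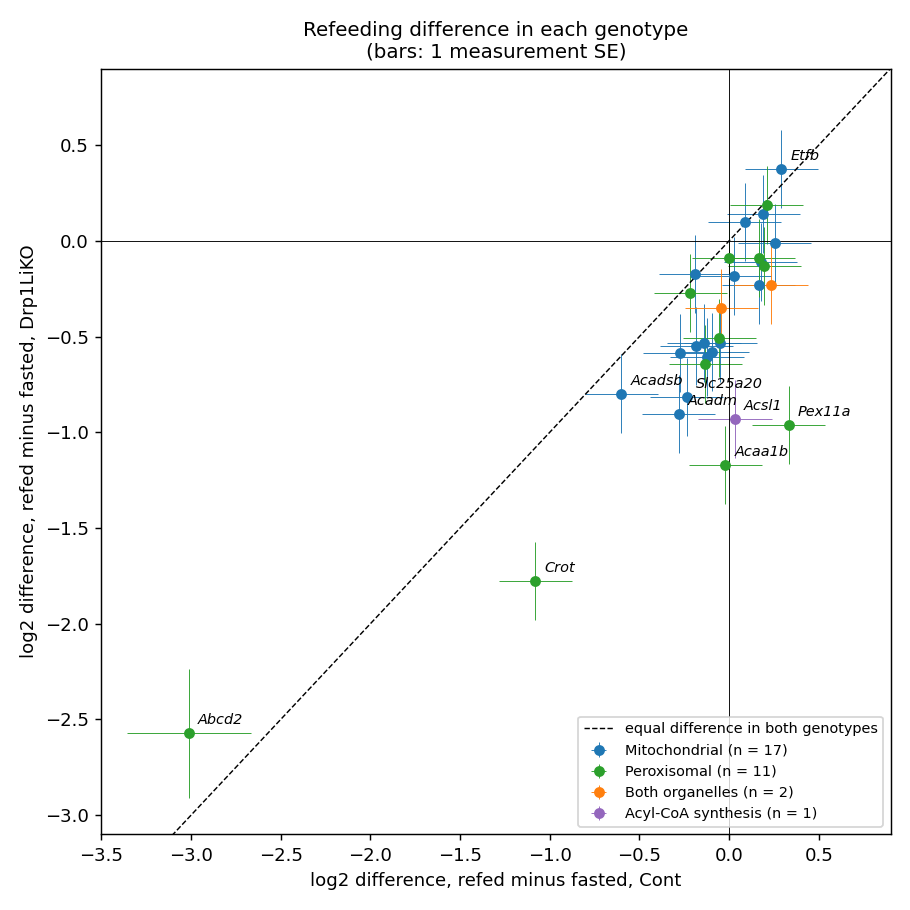
Log2 refed minus fasted difference of each member in Cont (x axis) and Drp1LiKO (y axis), with bars of 1 measurement SE and a dashed line of equal difference. 27 of 31 points lie below the dashed line, farthest below for Pex11a and Acaa1b, and Abcd2 lies above it.

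The difference of the 2 refeeding differences (Drp1LiKO minus Cont) was below 0 for 27 of 31 members, as it was for 47.1% of 18963 genes. Its median was −0.31 for mitochondrial and −0.33 for peroxisomal members, against 0.03 over all genes. Lower by at least 2-fold were Pex11a (−1.29 ± 0.29) and Acaa1b (−1.15 ± 0.29), where 8.31% of genes were. With Acsl1 (−0.96), Crot (−0.69), Acadm (−0.62) and Slc25a20 (−0.58), 6 members were beyond 2 measurement SEs of 0 on the low side, where 6.91% of genes were, and none on the high side. No member was higher by 2-fold in this quantity, where 6.58% of genes were. Abcd2 (0.44), Etfb (0.08), Etfa (0.02) and Acadvl (0.01) read above 0. With 1 array in each condition this quantity has no test.

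**Figure D4:**
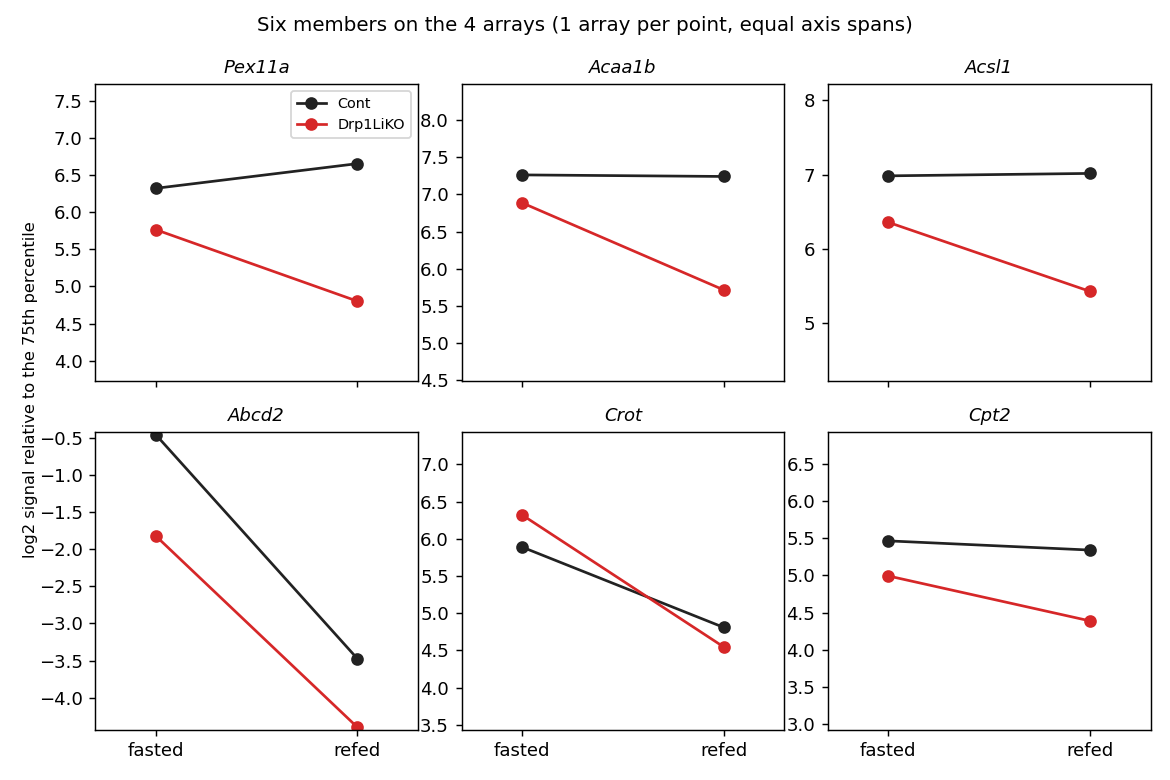
Log2 signal relative to the 75th percentile (y axes, equal spans) of 6 members in fasted and refed liver, Cont in black and Drp1LiKO in red, 1 array per point. The Cont lines of Pex11a, Acaa1b and Acsl1 are nearly level or rise and the Drp1LiKO lines fall, while Abcd2 and Crot fall in both genotypes.

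The arrays were tested with an additive limma model of genotype and feeding state over 16744 genes, with 1 residual degree of freedom, in which any interaction counts as error. A model of 1 factor alone is given among the alternatives. The additive model called 0 genes for genotype (0% of those tested) and 0 for feeding state at a Benjamini-Hochberg adjusted p under 0.05, although 4746 and 4414 genes had an unadjusted p under 0.05. None of the 31 members was called, and the smallest adjusted p of a member was 0.104 for genotype and 0.169 for feeding (limma). For genotype, 14 members had an unadjusted p under 0.05, where 28.3% of all genes did. When limma was run only on the 14447 genes that passed the background test in all 4 livers, 8.4% were called for genotype, among them 3 members, all lower in Drp1LiKO: Abcd2 (−1.14, adjusted p = 0.0375), Decr2 (−0.80, adjusted p = 0.0436) and Eci2 (−0.83, adjusted p = 0.0466). For feeding, 0.104% were called, among them Abcd2 (−2.79, adjusted p = 0.0325). The refed Abcd2 signals were low, with intensities of 32.2 in Cont and 25.0 in Drp1LiKO, and no other limma setting called a member for feeding.

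The fasted comparison rested on the scaling. Of the members, 24 were among the brightest 10% of genes, and among those the fasted genotype difference had a median of −0.31, close to the −0.32 of the members. With quantile normalization, which gives all arrays the same distribution, the fasted medians became 0.01 for both groups and 15 of 31 members read below 0. The refed difference did not depend on it in this way: the median of the brightest 10% was −0.14, and under quantile normalization all 31 members still read lower, with medians of −0.34 and −0.50. For refeeding the brightest 10% had a median of 0.33 in Cont and 0.48 in Drp1LiKO, and all 31 members were below those medians.

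**Figure D5:**
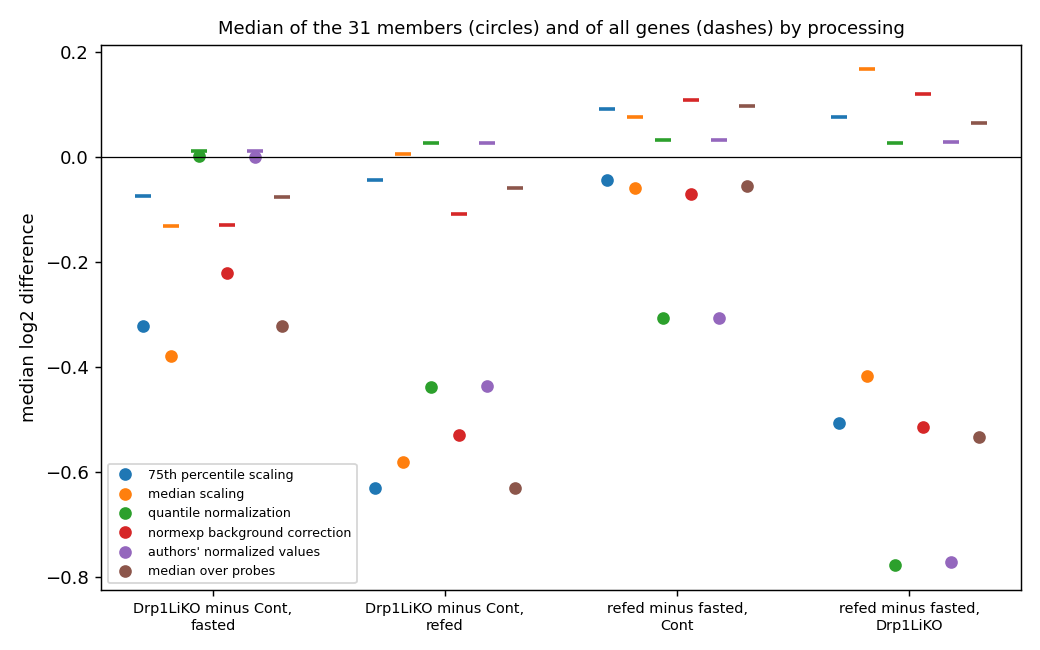
Median log2 difference (y axis) of the 31 members (circles) and of all genes (dashes) in the 4 comparisons under 6 ways of processing (colors). The fasted genotype median is near 0 under quantile normalization and the authors' values and between −0.22 and −0.38 otherwise, while the refed genotype median is between −0.44 and −0.63 in all 6.

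The livers also differed in markers of cell types. In these bulk samples, fewer cells of a type and less RNA per cell cannot be told apart. All 8 hepatocyte markers, among them Alb and Ttr, were well above background on all arrays, and their summed level (linear, in multiples of the 75th percentile) was 2989 in Cont and 2106 in Drp1LiKO after fasting and 3688 and 2599 after refeeding. Their median genotype difference was −0.34 after fasting and −0.41 after refeeding, and 0.14 and −0.08 under quantile normalization. The 7 macrophage markers found summed to 60.9, 70.1, 68.4 and 119 in the same order, highest in refed Drp1LiKO, where most members read lowest. The 4 neutrophil markers summed to 4.14, 2.29, 4.62 and 8.70. Both of these sums were highest in refed Drp1LiKO. The 5 endothelial markers summed to 23.4, 17.3, 27.3 and 17.0, and the 5 stellate markers to 1.26, 2.62, 1.86 and 1.85. The 5 cholangiocyte markers, of which Epcam passed the background test on no array, summed to 0.494, 1.08, 0.564 and 1.02. The 7 adipocyte markers summed to 10.9, 14.6, 32.7 and 10.5, and the 7 lymphocyte markers to 2.70, 2.28, 3.60 and 3.15. Of these, Adipoq, Lep, Plin1 and Cd8a passed the background test on no array. A sum follows its brightest genes, and the median of a list did not always go the same way. Median genotype differences (fasted, refed) were 0.17 and 0.57 for macrophage, −0.48 and 0.99 for neutrophil, and 0.77 and 0.46 for lymphocyte markers. They were 0.21 and −0.02 for endothelial, 0.84 and −0.02 for stellate, 0.71 and 0.68 for cholangiocyte, and −0.82 and −0.76 for adipocyte markers. The part of these shifts in the members' differences was not tested.

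Other genes of fatty acid oxidation were read from lists by role. Of 12 genes of acyl-CoA and carnitine entry, 10 passed the background test in some liver (not Cpt1c or Acsl6), and their median genotype difference was −0.0036 after fasting and −0.58 after refeeding. Cpt1a, the liver enzyme that makes acylcarnitine at the outer membrane, differed by 0.24 and −0.57. The carnitine transporter Slc22a5 was 2-fold lower after refeeding: it read 0.00 in Cont and −0.24 in Drp1LiKO after fasting, and −0.87 and −2.15 after refeeding. The synthetase Acsl4 was 2-fold higher in both states and so ran opposite to Acsl1, reading 1.06 and 2.74 after fasting and 1.56 and 3.13 after refeeding.

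Of 14 further peroxisomal genes, 13 read lower in Drp1LiKO after fasting and 12 after refeeding, where 56.3% and 53.9% of all genes did. Their medians were −0.56 and −0.57, and −0.30 and −0.46 under quantile normalization. Ehhadh, the bifunctional enzyme of the classical peroxisomal cycle, was the exception in size: it read 4.70 in Cont and 6.43 in Drp1LiKO after fasting and 3.67 and 4.93 after refeeding, higher in Drp1LiKO by 1.73 and 1.26. Nudt7, a CoA diphosphatase of peroxisomes, was lower by −1.62 and −1.02. Hacl1, which cleaves 2-hydroxyacyl-CoA, differed by −0.60 and −1.36, and the oxidase Acox3 by −0.96 and −1.07.

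The 12 other mitochondrial dehydrogenases and enzymes of branched-chain and propionate breakdown that were found had medians of −0.35 and −0.33, with none 2-fold different. Of all genes, 13.2% and 14.4% were 2-fold different between genotypes (fasted, refed). The 15 peroxins, which build peroxisomes, had medians of −0.17 and −0.36, and none was 2-fold different, beside −0.56 and −1.85 for Pex11a. The largest differences among the 15 were those of Pex26, −0.694 and −0.998, the latter just short of 2-fold. All 4 genes of ketone body synthesis read lower in Drp1LiKO in both states, as 43.3% of genes did, with medians of −0.21 and −0.87. Under quantile normalization these medians were 0.06 and −0.70. Bdh1, which interconverts the 2 main ketone bodies, differed by −0.24 and −1.03. Of the 9 regulators, Ppara, which encodes PPARalpha, was 2-fold lower in both states, reading 5.28 and 4.22 after fasting and 5.10 and 3.71 after refeeding. No other regulator was 2-fold different between genotypes. None of these genes was called by limma over all genes tested, where Acsl4 had an adjusted p of 0.0751 and Ppara and Ehhadh of 0.102 for genotype.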

How the data were processed

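Liver RNA of 4 mice was hybridized to 4 one-color Agilent arrays on 1 slide in 1 scan, 1 array per condition. The intensity values are the processed signals that the authors deposited as scanner output: per the file headers (Feature Extraction 10.7.1.1; the labels give 9.5.1.1), background was subtracted within each array and nothing was normalized between arrays. Their second table holds quantile-normalized intensity values and was used as an alternative; on the members' probes a quantile normalization computed here came within 0.00255 (log2). The 75th percentile of the 43020 gene spots was 460.6 and 721.8 in fasted Cont and Drp1LiKO and 356.9 and 525.7 in refed; between 48.7% and 58.2% of spots were well above background and none was saturated. The number of arrays limits the precision.

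Signals were put on the log2 scale, set relative to that percentile and averaged over repeated spots without outlier flags, which removed 37 probes. Of the 22472 RefSeq accessions, 21012 matched the GRCm38.p6 annotation; other probes keep the file's name. Each gene was read from the probe well above background on the most arrays, then the brightest. A 2-fold difference counted only where the brighter of the 2 signals had passed the background test. Additive limma models used genes that passed it on 2 arrays or more and were tested on simulated data. The simulated genotype effect was larger than that of any member and had no interaction. That test therefore gives no error rate for these data. Members, gene lists and tests were chosen with earlier results of these data known. Every member is named; values on each array are given for members 2-fold different in any comparison, for those with the largest or smallest difference in each organelle and comparison, and for those whose probes disagree in sign. Other genes of the pathway are given values where 2-fold different between genotypes, and Cpt1a was added after its values were seen; some genes of these lists are not reported by name here. Alternatives were median scaling, quantile normalization, normexp with an offset of 50, the authors' values, the median over probes, a 1.5-fold threshold, other filters, an intensity trend and single-factor models. R 4.3.3 with limma 3.58.1 and Python 3.11.15 were used. Probe positions are those of mm9 in the files, whose gene annotation was not used here; RefSeq promoters are on GRCm38.p6, and no coordinate was converted.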

Additional observations from a re-analysis of the deposited data

Results flagged for a closer look

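For 9 members the refed minus fasted difference had opposite signs in the 2 genotypes, in each case above 0 in Cont and below 0 in Drp1LiKO, as it was for 15.8% of 18963 genes. For Acsl1, Decr1 and Scp2 a second probe read below 0 in both genotypes, so there the opposite sign rests on the probe chosen. The difference between genotypes was not tested, as each rests on 4 arrays, and for none of the 9 were both values beyond 2 measurement SEs of 0. The difference of the refeeding differences (Drp1LiKO minus Cont, log2) was −1.29 for Pex11a and −0.96 for Acsl1, the only 2 of the 9 that were beyond 2 measurement SEs. It was −0.46 for Ech1, −0.39 for Acads and −0.33 for Acox2. It was −0.29 for Decr1, −0.27 for Acaa2, −0.25 for Scp2 and −0.21 for Eci1, each smaller than its measurement SE of 0.29 or about equal to it. Under quantile normalization the signs were opposite for 3 of these members, Pex11a, Acads and Acaa2.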

How the results depend on the processing

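The fasted genotype medians were the results that turned over. With quantile normalization they were 0.0116 (mitochondrial) and 0.0124 (peroxisomal) in place of −0.2333 and −0.375, and with the authors' values 0.0111 and 0.0124. The peroxisomal refeeding medians moved under the same alternatives, to −0.349 and −0.350 in Cont and −0.979 and −0.978 in Drp1LiKO. The other medians, among them both refed genotype medians, moved by less than 0.204, the measurement SE of a member's difference. At 1.5-fold the members different numbered 5 and 17 between genotypes (fasted, refed) in place of 1 and 3, and 11 for refeeding in Drp1LiKO in place of 3, all lower, where 13.8%, 15.3% and 14.9% of genes were lower by that much. At 2-fold, the count for refeeding in Drp1LiKO was 7 with quantile normalization or the authors' values and 5 with the median over probes, in place of 3. The limma counts were the least stable: for genotype 319 genes with median scaling, 498 with normexp, 474 with an intensity trend, 1 with a single factor and 1214 among genes well above background on all 4 arrays, where 3 members were called, with 15 genes and 1 member for feeding. The other limma alternatives called 0. Leaving out an array was not possible, since each condition has 1 and the model would keep no residual degree of freedom. No paired analysis was possible because the labels give no replicate numbers shared between groups.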
